A study of Drosophila melanogaster with 5 samples.

Results

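The Pol II peak list from Yki-V5 eye discs held 10105 peaks, out of 24341 in the 3 peak lists of the series. Every peak of the list was taken, without a further filter, and the Yki list (11679 peaks) and the Sd list (2557 peaks) served as context. The peaks come from chromatin immunoprecipitation and sequencing (ChIP-seq) of eye imaginal discs, the larval epithelium that forms the adult eye, from 3rd instar Drosophila melanogaster larvae. The Pol II discs carried GMR-Gal4 and UAS-Drosophila Yki-V5, a V5-tagged form of the growth regulator Yorkie (Yki), and were labelled with ectopic cell proliferation. The Yki and Sd discs carried GMR-Gal4 with UAS-Drosophila Yki S168A and the same phenotype label. Fixation was in 2% formaldehyde, for 30 minutes, in all samples, and 10 µg of antibody was used on chromatin of about 300 discs. Each antibody had 1 library, so there is no replicate spread, no difference below was tested, and exact 95% intervals treat peaks as independent and cover counting error alone. The V5 input and the S168A input were not analysed here.

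RNA polymerase II (Pol II) transcribes protein-coding genes. In flies, as in mammals, it often pauses shortly after initiation, so ChIP signal piles up near gene starts, while long or strongly transcribed genes can carry signal along their bodies. The antibody, 8WG16, was raised against the repeated tail of the largest subunit and binds best where that tail is not phosphorylated, the state in which the enzyme is loaded at promoters. GMR-Gal4 drives expression in differentiating cells behind the morphogenetic furrow of the eye disc. The discs were processed whole, so the Pol II list mixes cells that express Yki-V5 with cells that do not, and genotype and antibody cannot be told apart when Pol II is set beside Yki or Sd.

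Coordinates are on build dm3, written 1-based. Peaks were not assigned to genes, because the gene table at hand describes a later release, so no gene, start site or tissue marker is named. The score of a peak is the authors' own value from their peak caller, which behaves as a −log10 q value although no header says so. It ranks peaks within a list only. Pol II scores spanned 3.01 to 154.8, with a median of 30.2 and quartiles of 10.4 and 74.0. Scores under 10 belonged to 475 peaks between 3 and 5 and 1939 between 5 and 10, and 1235 peaks reached 100 or more.

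Most Pol II peaks were narrow, and the few wide ones held much of the occupied sequence. Of the 10105 peaks, 1159 (11.5%, 10.9 to 12.1) were narrower than 250 bp, 4867 (48.2%) measured from 250 to under 500 bp and 2779 (27.5%) from 500 to under 1000 bp. Another 939 peaks (9.29%) measured from 1000 to under 2000 bp, 331 (3.28%) from 2000 to under 5000 bp and 30 (0.297%) reached 5000 bp. The narrowest class therefore made up 11.5% of the peaks and 4.09% of the 6.34 Mb covered. The 360 peaks wider than 2 kb (3.56%, 3.21 to 3.94) covered 1.15 Mb, or 18.1%, and the widest 2166 peaks held 50% of the covered length. The smallest width was 200 bp, which 52 peaks shared.

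Score climbed with width through every class. The median score was 7.78 in peaks narrower than 250 bp, 27.0 from 250 bp, 56.9 from 500 bp, 62.5 from 1000 bp, 88.4 from 2000 bp and 108.6 at 5000 bp or more. The classes overlapped widely: in the class from 500 bp the quartiles were 16.4 and 93.3. Across the 10105 peaks, which share 1 library and its depth, width and score had a Spearman rho of 0.52, and it was 0.60 across the 4335 peaks with no neighbour within 1 kb.

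**Figure D1:**
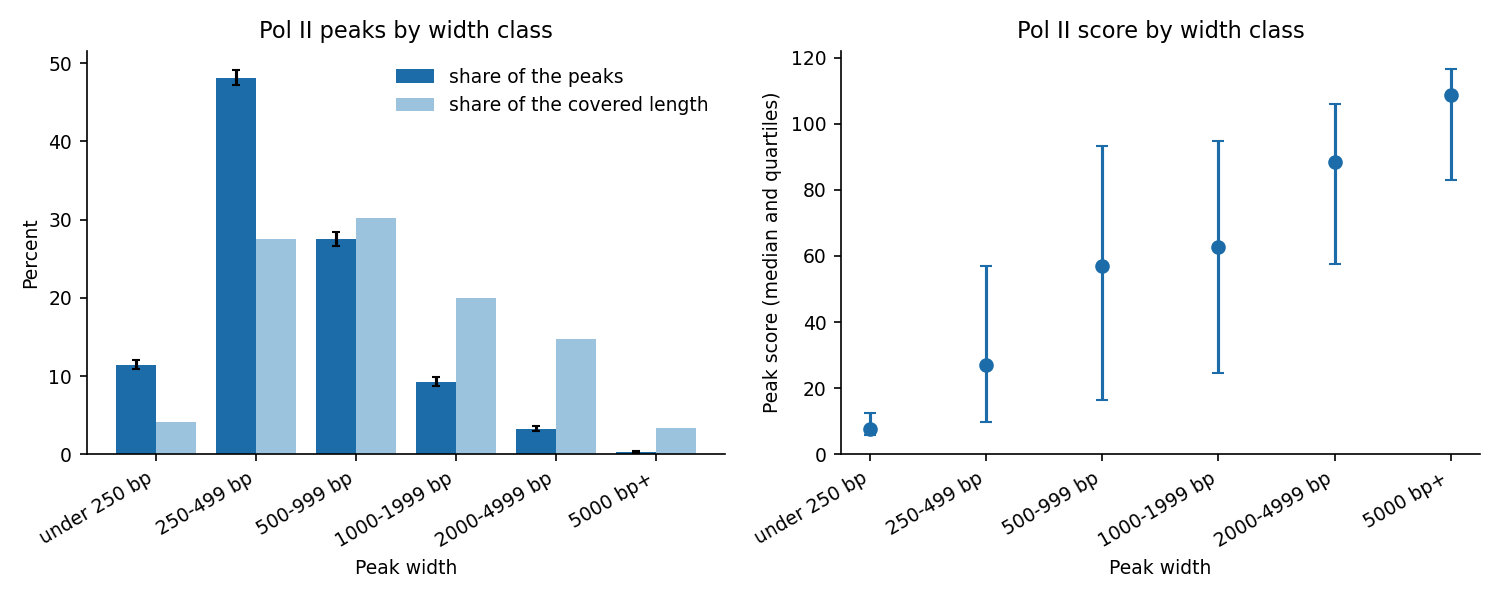
Left, share of the 10105 Pol II peaks (dark bars, exact 95% intervals) and of the 6.34 Mb they cover (light bars) in each width class, in percent. Right, median peak score with quartiles in the same classes, which rises from 7.78 in the narrowest class to 108.6 in the widest.

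The highest score and the greatest width fell on different peaks on each of the 6 arms. On 3L the highest peak, from 7149734 to 7150373, measured 640 bp, scored 154.1 and stood 21273 bp and 32298 bp from its neighbours. The highest peak of 2L, from 20104558 to 20105034, measured 477 bp (score 146.6), and that of 2R, from 7599615 to 7600023, measured 409 bp (149.7). On 3R it measured 2413 bp, from 8192791 to 8195203 (146.7), and on 4 it measured 1055 bp, from 715774 to 716828 (142.4). Each of these 5 peaks had no neighbour within 1 kb. The highest peak of X, 1948 bp from 14968483 to 14970430 (154.8), was the exception and belonged to a group of 5 peaks. All 6 overlapped a Yki peak, and the one on 3R alone overlapped an Sd peak. In the highest quartile of Pol II score, Yki overlapped 92.1% of peaks with no neighbour within 1 kb and 97.1% of the others. For Sd these shares were 17.4 and 18.1%.

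The widest peaks were of 2 kinds by score. A 15334 bp peak on 2R, from 5522285 to 5537618, scored 26.0, below the list's median, and had neither a Yki nor an Sd peak. The other 9 of the 10 widest peaks scored between 64.9 and 121.9 and all overlapped Yki, and 6 of them also overlapped Sd. Of the 30 peaks of 5000 bp or more, 28 overlapped Yki and 16 overlapped Sd. In the whole list Yki overlapped 59.4% of peaks with a neighbour within 1 kb and 68.5% of the others. For Sd these shares were 8.51 and 11.7%. A wider peak meets an overlap of 1 bp more easily. The widest of the 9 was the 15479 bp peak on 3L from 628280 to 643758 (score 95.9). It was followed by 11169 bp on X from 1506066 to 1517234 (64.9), 9823 bp on 3L from 16030347 to 16040169 (116.2) and 9075 bp on 3R from 14068280 to 14077354 (110.0). The widest peak of 2L measured 6899 bp, from 2752151 to 2759049 (99.7), and that of 4 measured 4610 bp, from 679255 to 683864 (72.7). Of all 360 peaks wider than 2 kb, 275 (76.4%) had a neighbour within 1 kb, against 57.1% of the whole list.

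Spacing between Pol II peaks ran over more than 4 orders of magnitude on all sequences together. The longest gap was 2257.5 kb on unplaced sequence and 500.2 kb on the 6 arms. A gap is the number of bases between the end of a peak and the start of the next on the same sequence. The 10091 gaps had a median of 2350 bp, quartiles of 434 and 10478 bp and a 90th percentile of 32531 bp. The shortest was 52 bp. Gaps were most numerous between 100 and 199 bp (825) and between 200 and 299 bp (715), and thinned out to 149 in the last 100 bp below 1 kb. In all, 3699 gaps (36.7%) were 1 kb or less. At the other end, 232 gaps (2.30%) of 100 kb or more, on all sequences, made up 43.0% of the summed length between peaks. Of their 66.5 Mb, the 174 gaps on the 6 arms made up 27.0 Mb. The rest came from 58 gaps on heterochromatic or unplaced sequence, so the 43.0% does not describe the arms.

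Pol II peaks were closer together than Yki peaks at short range and farther apart at long range. The lower quartile of the gap was 434 bp for Pol II, 958 bp for Yki and 5507 bp for Sd. The 90th percentile was 32531 bp for Pol II, 24260 bp for Yki and 134205 bp for Sd. The shortest gap was 52 bp for Pol II, 52 bp for Yki and 55 bp for Sd. With the upper 50% of peaks by score the median Pol II gap was 9919 bp, and a shorter list has longer gaps whichever peaks are removed. The Sd list holds 2557 peaks in all. When the Pol II and Yki lists were reduced to their 2557 highest peaks, gaps of 1 kb or less made up 5.39% for Pol II and 5.11% for Yki. In the whole Sd list they made up 10.9%. The median gap was then 24578 bp for Pol II and 25388 bp for Yki, against 22571 bp for Sd. That comparison sets the strongest Pol II and Yki peaks against every Sd peak, weak ones included.

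**Figure D2:**
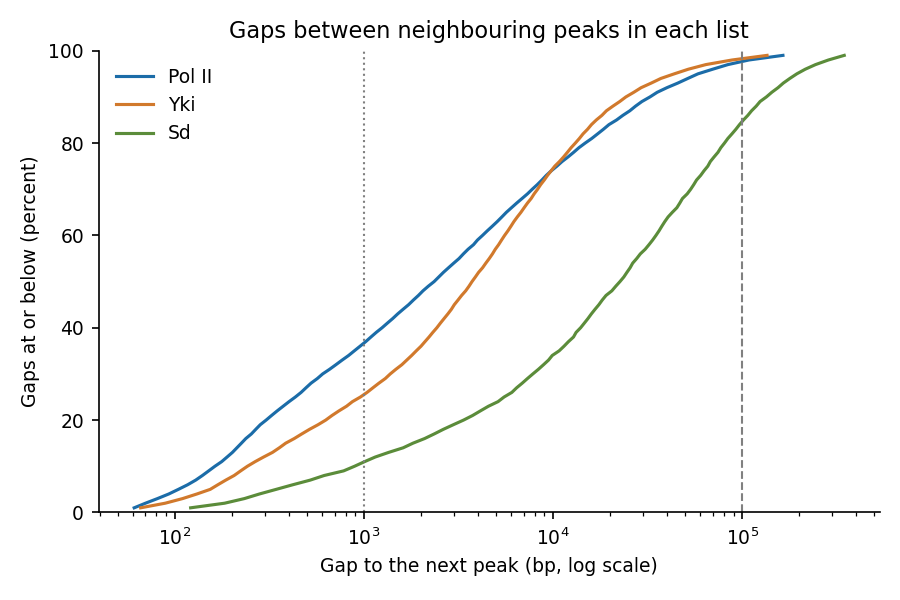
Percent of gaps between neighbouring peaks at or below each length (log axis, bp) for the Pol II, Yki and Sd lists, with dotted and dashed lines at 1 kb and 100 kb. The Pol II curve lies above the Yki curve at short gaps (36.7% against 25.5% at 1 kb) and below it from about the 75th percentile on.

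Pol II peaks close to each other scored lower than neighbours 10 to 50 kb apart, and differed by less in score units. Lower scores leave less room for such a difference. Of 3699 pairs with a gap of 1 kb or less, 1627 (44.0%) joined a peak above the list's median score to one at or below it, 1425 (38.5%) had both at or below it and 647 (17.5%) had both above. In pairs less than 250 bp apart the higher peak had a median score of 45.9 and the lower one of 9.79, with a median difference within the pair of 23.1. At 10 to 50 kb the higher had a median of 88.4 and the lower of 24.8, with a median difference of 40.7. Scores of neighbours had a Spearman rho of 0.11 over all 10091 pairs, which share the library, 0.12 at gaps up to 1 kb and 0.060 beyond, a weak relation in each case.

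Peaks with more room around them scored higher and were narrower. The median score was 20.7 where the nearest peak lay under 500 bp away (4561 peaks), 34.2 at 1 to 5 kb (2486), 53.6 at 5 to 10 kb (774) and 63.6 at 10 to 25 kb (643). At 25 kb or more (431) it was 63.1. Median width went the other way, at 462 bp under 500 bp, 407 bp at 1 to 5 kb and 386 bp at 25 kb or more.

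Linking peaks with gaps of at most 1 kb placed 5770 peaks, 57.1% of the list (56.1 to 58.1), in 2071 clusters of 2 or more. The other 4335 peaks were single. Pairs were the usual form, with 1235 clusters, followed by 465 clusters of 3, 198 of 4, 161 of 5 to 9 and 12 of 10 or more. The 173 clusters of 5 or more held 1113 peaks, 11.0% of the list. Clusters spanned 5.30 Mb, of which the peaks themselves covered 75.3%, and 31 clusters were longer than 10 kb. Under the same rule 43.7% of Yki peaks and 19.9% of Sd peaks lay in clusters. The largest cluster held 30 peaks for Pol II, 9 for Yki and 6 for Sd. These lists differ in length, and a longer list places more peaks within a fixed gap. With the 2557 highest Pol II and Yki peaks, the clustered share was 10.4% for Pol II and 9.78% for Yki. The 19.9% for Sd is that of its whole list, weak peaks included. With the upper 50% of Pol II peaks by score, 24.9% were clustered and no cluster of 5 or more was left. A linking gap of 500 bp gave 84 clusters of 5 or more, 2 kb gave 338 and 5 kb gave 597.

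Larger clusters had higher tops and lower bottoms. The highest score in a cluster had a median of 61.2 for 2 peaks, 72.1 for 3, 81.4 for 4, 85.8 for 5 to 9 and 107.3 for 10 or more, against 43.7 for single peaks. A maximum over more peaks is higher, and a minimum lower, by count alone. The lowest score had a median of 13.0 for 2 peaks and 4.32 for 10 or more. In clusters of 10 or more, 26 of 171 peaks (15.2%) exceeded the list's median score. The top peak was also the wider, though it is picked by score, which rises with width across the list. In clusters of 3 it had a median width of 672 bp, against 391 bp for the other members. In clusters of 5 it had 939 bp against 420 bp. The top peak stood at an end in 327 of 465 clusters of 3 (70.3%, 65.9 to 74.4), where ends are 2 of 3 places. In clusters of 4 the share was 58.1% (50.9 to 65.0), with ends 2 of 4 places, and in clusters of 5 it was 52.6% (40.9 to 64.0), with ends 2 of 5. The first place held the top in 162 clusters of 3 and the last in 165. Reading direction of the underlying genes was not used.

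The cluster with the most peaks lay on X from 1468793 to 1521905. Its 30 peaks spanned 53.1 kb and covered 85.2% of it. A 5414 bp peak at its first end scored 112.1, the 11169 bp peak named above scored 64.9, and 1 other peak exceeded 30, while the median of the cluster was 13.1. After a gap of 7622 bp came another cluster, of 12 peaks, from 1529528 to 1541564, in which no score exceeded 15.8 and no peak overlapped Yki or Sd. Together the 42 peaks spanned 72.8 kb and covered 55.0 kb, 39 of them scored at or below the list's median, 4 overlapped Yki and 3 overlapped Sd. Of all clustered Pol II peaks, Yki overlapped 59.4% and Sd 8.51%. Among peaks in clusters of 5 or more, the shares were 10.8% and 2.04% in the lowest quartile of Pol II score. In quartile 2 they were 36.1% and 5.43%.

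Most other large clusters joined a few strong peaks to a run of weaker ones. The next, 20 peaks on 3R from 6414266 to 6440141, ended in a 4701 bp peak of score 120.2, and its other 19 peaks scored from 4.32 to 14.0. The cluster of 15 on 2R from 6406144 to 6431040 held peaks of 89.3, 119.7 and 125.1 in its last 10 kb, and its other 12 scored at most 17.9. On 3R from 9460188 to 9474403, the last 2 of 14 peaks scored 104.9 and 70.0 and the other 12 at most 26.7. The cluster of 13 on 2R from 5506473 to 5545904 spanned 39.4 kb, of which 93.3% was covered, and closed with an 8127 bp peak of score 93.7, the only member that overlapped Yki. On 3R from 16603941 to 16619271 the strong peaks of 13 lay inside the cluster, at 93.8, 64.7 and 117.9. On 2L from 6916171 to 6929724 the strongest of 12 was the first, at 101.0. The remaining 2 of the 10 largest, with 11 peaks each, lay on 2L from 8415049 to 8428583 and from 11797791 to 11810476, with top scores of 116.9 and 109.8.

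**Figure D3:**
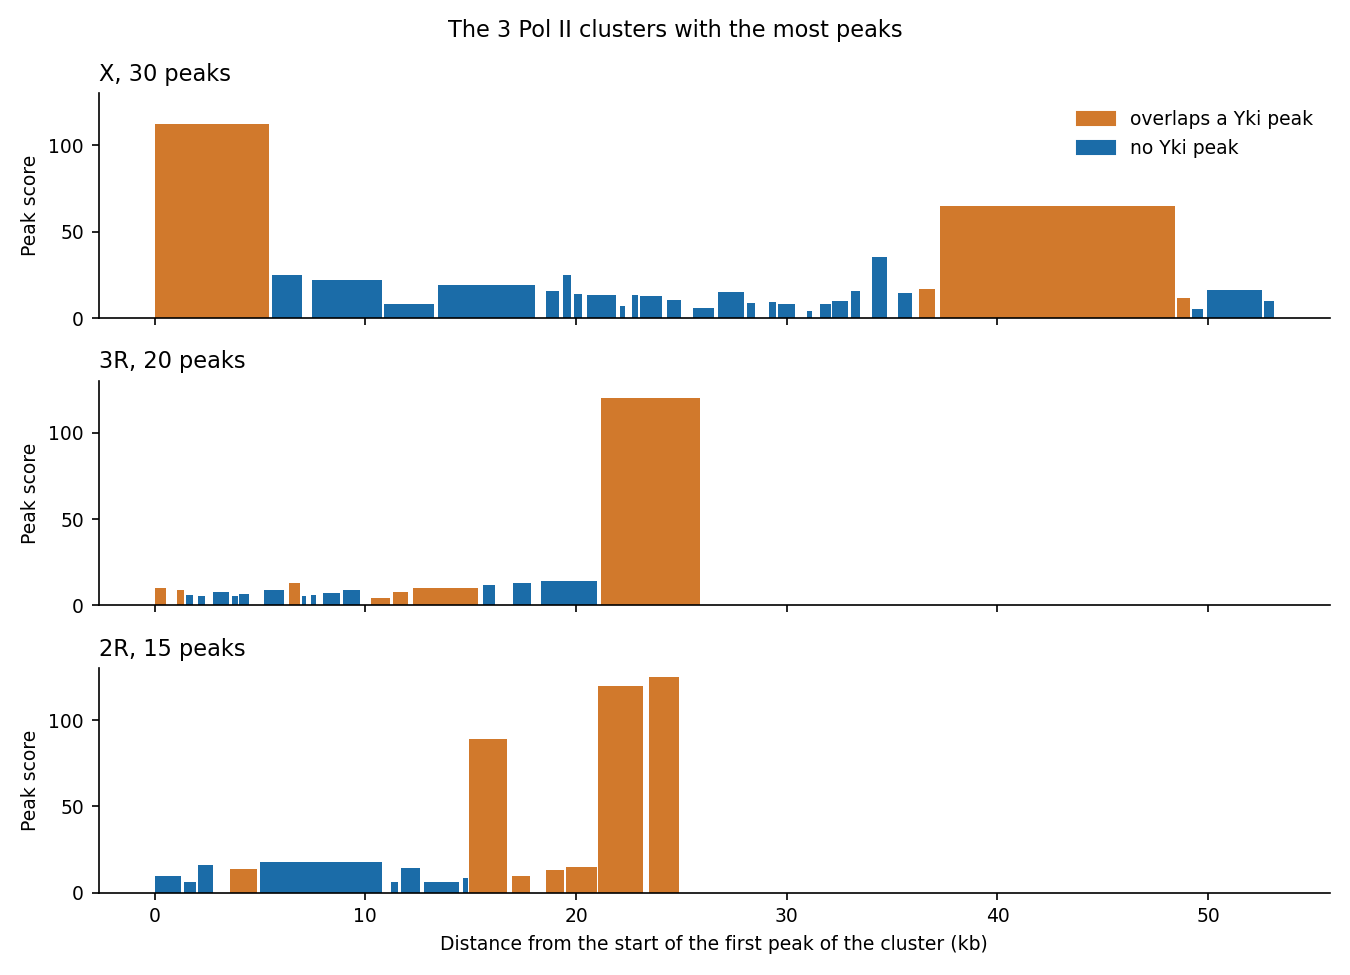
Peak score (y axis) against distance from the first peak of the cluster in kb (x axis) for the 3 Pol II clusters with the most peaks. Each bar is 1 peak drawn to its width, orange where it overlaps a Yki peak and blue where it does not, and each cluster shows 1 to 3 peaks far above a run of low ones.

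Yki overlapped a smaller share of clustered than of isolated Pol II peaks in the whole list, and the order changed within classes of score. Isolated peaks are the 1064 single ones with at least 10 kb to the neighbour on both sides. Yki overlapped 59.4% of clustered peaks (58.1 to 60.6, n = 5770) and 67.9% of isolated ones (65.0 to 70.7). Clustered peaks had a median score of 21.3 and isolated ones of 63.5. In the lowest quartile of Pol II score the shares were 18.7% of 1861 clustered and 41.7% of 60 isolated peaks. In quartile 2 they were 55.2% of 1479 clustered and 43.4% of 235 isolated peaks, and in quartile 3 they were 89.6% of 1310 (87.8 to 91.2) and 55.6% of 306 (49.8 to 61.2). In the highest quartile 97.1% of 1120 clustered and 91.8% of 463 isolated peaks had Yki.

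Width moved with these groups and its part in them was not tested. In quartile 3 clustered peaks had a median width of 507.5 bp and isolated ones of 335 bp. With an overlap of 50% of the shorter peak, Yki was on 38.7% of clustered and 33.2% of isolated peaks in quartile 2. In quartile 3 the shares were 73.1 and 45.8%, in the highest quartile 89.9 and 89.2%, and in the lowest 14.0 and 35.0%. When each peak was instead reduced to its central 200 bp, the clustered share stayed above the isolated one in quartile 3 alone. There it was 36.6% of clustered (34.0 to 39.2) and 32.4% of isolated peaks (27.1 to 37.9). The lowest quartile gave 9.67% of clustered and 35.0% of isolated peaks. In quartile 2, where the full widths had given the opposite order, the shares were 23.1% of clustered (20.9 to 25.3) and 28.1% of isolated peaks (22.4 to 34.3). In the highest quartile they were 39.7% of clustered and 59.8% of isolated peaks. Neighbouring Pol II peaks can also share a Yki peak: 647 Yki peaks overlapped 2 or more Pol II peaks, and 5689 overlapped 1. At the level of whole clusters, at least 1 member overlapped Yki in 87.7% of clusters of 2 and 90.3% of clusters of 3. The share was 96.0% for 4 peaks, 94.4% for 5 to 9 and 91.7% for 10 or more. Such a share is higher with more members by count alone. Counted by peak, Yki overlapped 70.0% of members in clusters of 2, 57.2% for 3 and 55.9% for 4. It overlapped 44.1% for 5 to 9 and 24.0% for 10 or more. Within clusters of 3 the top peak had Yki in 86.5% and the others in 42.6%. The top peak is picked by its Pol II score, with which the Yki share rises, so this contrast is not independent of score. Sd overlapped 8.51% of clustered Pol II peaks (7.80 to 9.26) and 14.0% of isolated ones (12.0 to 16.2). Within the upper classes of Pol II score the Sd shares lay closer together, at 18.1% of clustered and 18.4% of isolated peaks in the highest quartile, and 10.5% of clustered and 11.4% of isolated peaks in quartile 3. In quartile 2 they were 6.09% of clustered (4.92 to 7.43) and 9.36% of isolated peaks (5.96 to 13.8). In the lowest quartile they were 3.28% of clustered peaks and 11.7% of isolated ones, 7 of 60.

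**Figure D4:**
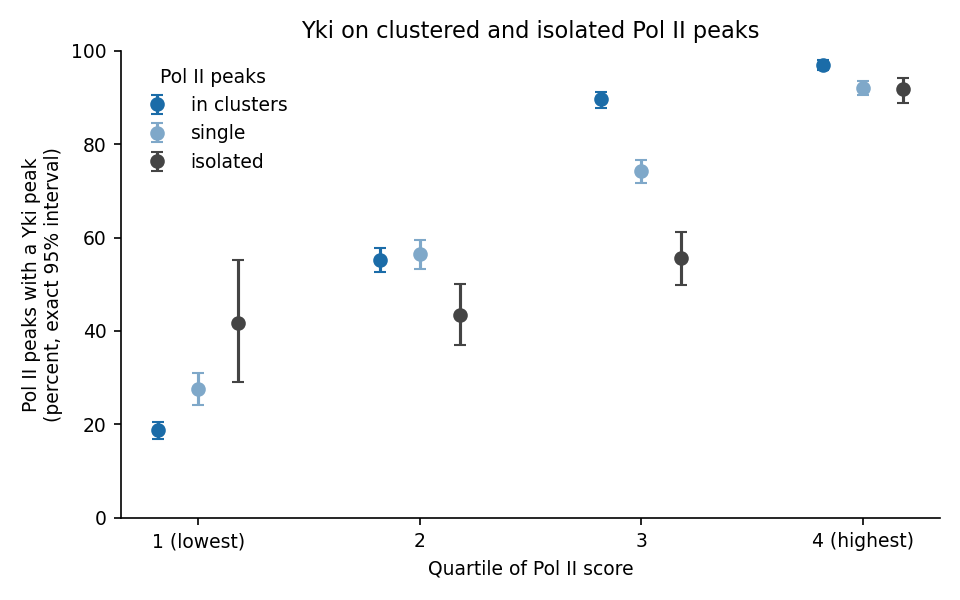
Percent of Pol II peaks that overlap a Yki peak (y axis, exact 95% intervals) in each quartile of Pol II score, for peaks in clusters, single peaks and isolated peaks, which are part of the single ones. Overlap is of at least 1 bp. In quartile 3 clustered peaks stand at 89.6% and isolated ones at 55.6%, and in the lowest quartile the order is the opposite. With the central 200 bp of each peak, not drawn, the shares in quartile 3 are 36.6 and 32.4%.

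The 5 large arms lay close together in width and spacing, and chromosome 4 lay outside their range. Density ran from 75.9 peaks per Mb on 3L and 76.4 on 2L through 80.4 on X and 84.5 on 3R to 93.5 on 2R, and it was 145 on 4, with length taken to the last peak end of any list. Median width was 410 to 444 bp on the 5 large arms, median gap 2099 to 2637 bp, and 54.7 to 59.9% of peaks were clustered. Chromosome 4, small and largely heterochromatic, had 196 peaks with a median width of 509.5 bp and a median gap of 943 bp, 76.0% of them clustered (69.4 to 81.8). Its median score was 10.9, against 28.3 to 33.5 on the large arms, and Yki overlapped 30.1% of its Pol II peaks, against 62.6 to 66.3%. Sd went the other way and overlapped 14.3% of the Pol II peaks of chromosome 4, against 8.32 to 11.1% on the large arms.

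Pol II peaks were unevenly spread along the 5 large arms. Over 1200 windows of 100 kb the count had a median of 7, quartiles of 3 and 12 and a maximum of 41, and 273 windows (22.8%) held 50% of the peaks. The variance of the counts was 5.55 times their mean for Pol II, 3.80 times for Yki and 1.93 times for Sd. By arm the Pol II ratio ran from 4.93 on 3L to 6.36 on 2L among the 5 large arms. On chromosome 4 it was 1.86, and none of the 13 windows there was empty. With the 2557 highest Pol II and Yki peaks the ratio on the 6 arms was 1.55 for Pol II and 1.47 for Yki. The whole Sd list, which has that length with weak peaks included, had 1.93. With the upper 50% of the Pol II list the ratio was 2.50. Counts of neighbouring windows had a Spearman rho of 0.21 over 1194 pairs on the same arm. The peak count and the covered length of a window, which share the peaks, had a rho of 0.95.

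Windows rich in Pol II peaks differed in the kind of peak they held. The 330 windows with 1 to 4 peaks had a median peak score of 51.8 and 20.1% of their peaks in clusters. The 77 windows with 20 or more had a median score of 18.9 and 74.0% in clusters. Yki overlapped 70.4% of the Pol II peaks in the first class and 55.8% in the second. The median number of Yki peaks per window was 5 in the first class and 17 in the second, against 1 in the 100 windows with no Pol II peak. For Sd it was 1 and 3, against 0.

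The window with the most Pol II peaks, 41, was on X from 1500001 to 1600000, across the large clusters described above, and 43.6 kb of it was covered. It held 9 Yki and 2 Sd peaks. Next came 37 peaks on X from 19500001 to 19600000, with 21 Yki and 5 Sd peaks. On 2L, neighbouring windows from 10200001 to 10300000 and from 10300001 to 10400000 held 35 and 34 Pol II peaks, with 24 and 19 Yki peaks. A window with 34 on X from 15600001 to 15700000 had 23 Yki peaks, and one with 32 on 3R from 1400001 to 1500000 had 17. The others of the 10 densest lay on 2L from 8400001 (31 peaks) and 19100001 (30), on 3L from 200001 (29) and on 3R from 12000001 (29). By covered length the first window was on 2R from 5500001 to 5600000, where 27 peaks covered 46.5 kb. Windows with at least 15 peaks numbered 212 in 167 runs, of which 6 were 3 or more windows long. The longest runs, of 4 windows, were on 2R from 19700001 to 20100000 with 94 peaks and from 13300001 to 13700000 with 82.

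Stretches of 100 kb or more between neighbouring Pol II peaks numbered 174 on the arms and added up to 27.0 Mb, or 22.4% of the 120.3 Mb to the last peak ends. Ends of arms beyond the first or last peak are not counted, and unsequenced or repetitive parts, where reads cannot be placed, were not separated from sequence without signal. Median length was 138 kb, 29 stretches reached 200 kb and 3 reached 300 kb. There were 40 on 2L (25.1% of its length), 23 on 2R (16.6%), 34 on 3L (23.1%), 43 on 3R (22.5%), 34 on X (25.5%) and 0 on 4, whose longest gap was 94.3 kb. With the upper 50% of peaks by score there were 227 stretches of 35.6 Mb. Between neighbouring Yki peaks there were 134 such stretches of 19.7 Mb. The 2 sets shared 14.9 Mb, which is 55.4% of the Pol II stretches and 76.0% of the Yki stretches. The Yki list is the longer one. With the 2557 highest peaks of each list, Pol II had 336 stretches of 57.3 Mb and Yki had 330 of 56.0 Mb.

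Several of the longest stretches lay near one end of an arm. The longest, 500.2 kb, was on 3L from 24030187 to 24530382, and a stretch of 290.2 kb without a Yki or Sd peak lay shortly before it, from 23731303 to 24021478. After the 500.2 kb stretch, the longest were 370.2 kb on X from 20528633 to 20898845 and 340.7 kb on X from 21503146 to 21843804. When each arm was divided into 10 equal parts in the direction of its coordinates, the last part of 3L had 27.3 Pol II peaks per Mb and 74.2% of its length in such stretches, while the densest parts of 3L had 101 per Mb. The last part of X had 33.9 per Mb and 70.9% in stretches, while the densest part of X had 116. These parts border the centromeric heterochromatin. On 2L the lowest parts were the 7th and 8th, at 35.3 and 52.2 per Mb, and on 2R the first, at 53.9. On 3R the lowest was the 9th part, at 58.1 per Mb.

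Other long stretches lay farther from the ends of the arms. On 3L 289.6 kb from 13506759 to 13796335 held no Yki and no Sd peak, and the same was true of the longest on 3R, 277.8 kb from 23873429 to 24151181. The longest on 2L, 278.4 kb from 15771231 to 16049645, held 3 Yki peaks and 1 Sd peak. The longest on 2R, 277.4 kb from 15721422 to 15998855, held 15 Yki and 7 Sd peaks. On X 271.8 kb from 19781709 to 20053491 held 4 Yki peaks and no Sd peak, and 270.0 kb from 7232324 to 7502314 held 14 Yki and 2 Sd peaks.

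**Figure D5:**
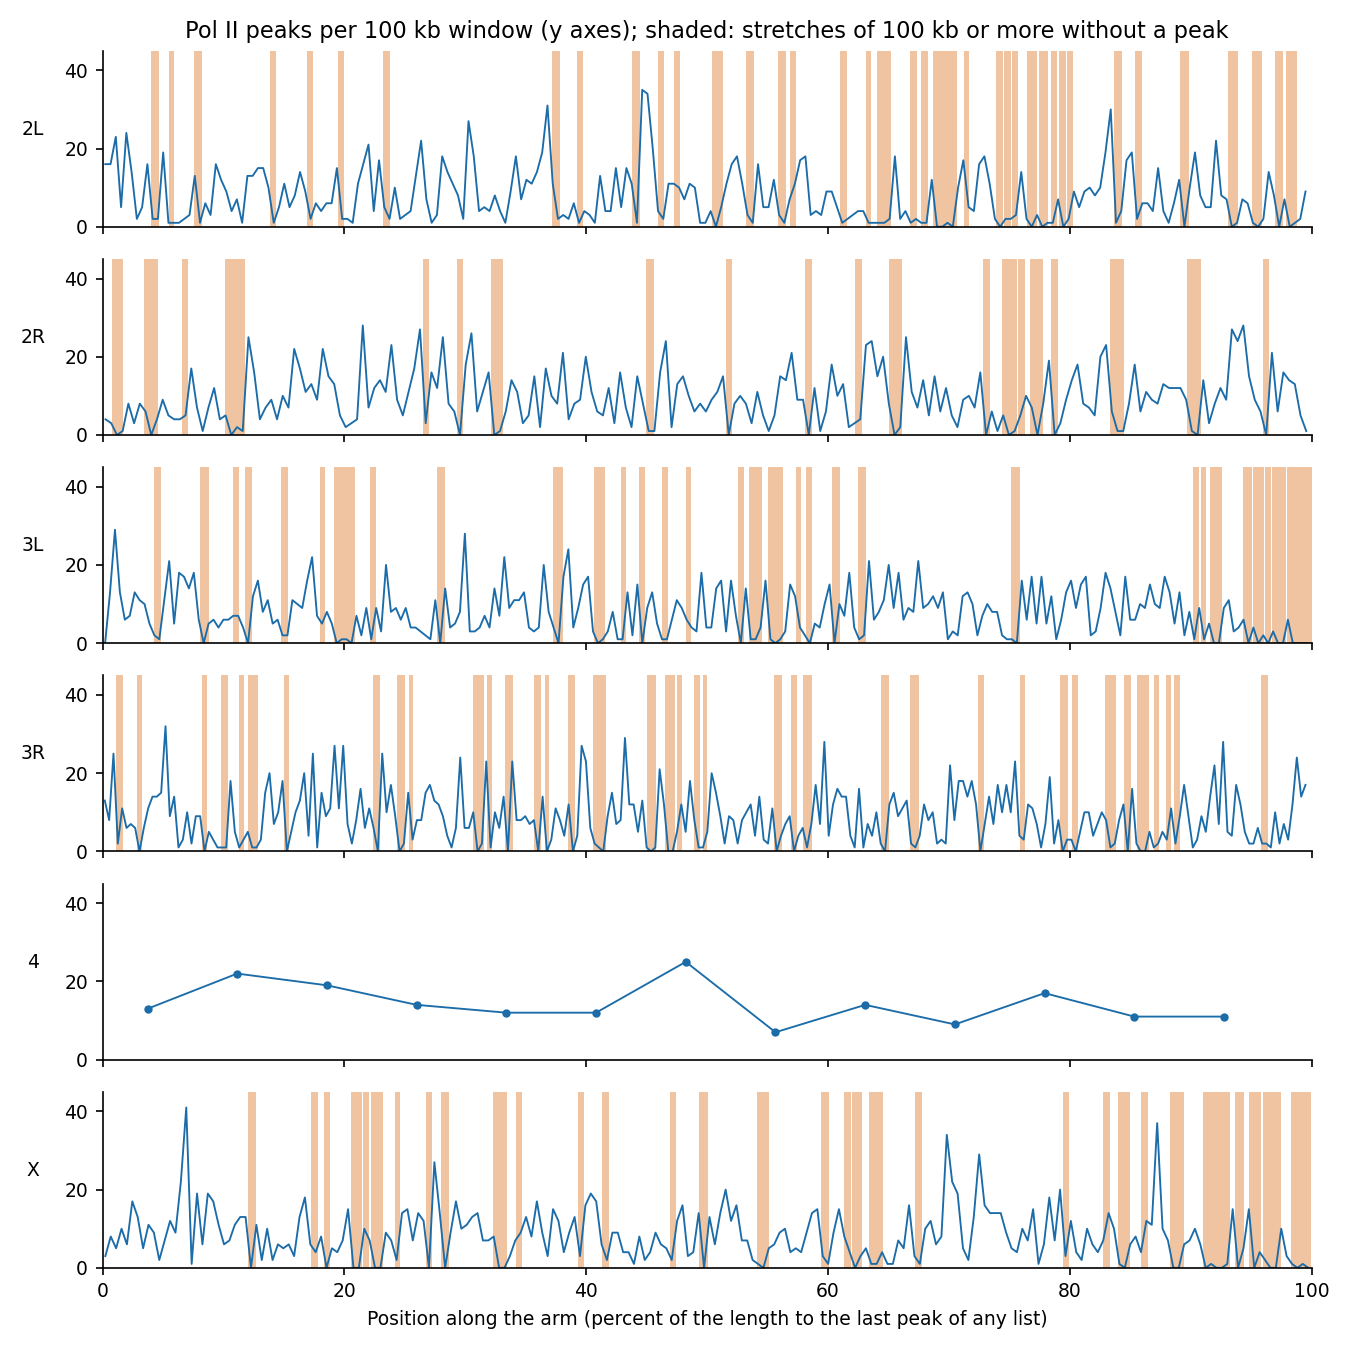
Pol II peaks per 100 kb window (y axes, same scale) along each of the 6 arms (x axis, percent of the length to the last peak of any list), with stretches of 100 kb or more without a Pol II peak shaded. Counts reach 41 on X, no stretch is shaded on 4, and shading is dense at the right ends of 3L and X.

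Stretches without Pol II were poorer in Yki and Sd peaks, though most were not empty of them. They held 740 of 11546 Yki peaks on the arms (6.41%, 5.97 to 6.87) and 211 of 2508 Sd peaks (8.41%, 7.36 to 9.57). Yki density was 27.4 per Mb inside and 115.8 outside, a ratio of 0.237 (0.220 to 0.255), and Sd density was 7.83 inside and 24.6 outside, a ratio of 0.318 (0.275 to 0.366). A peak that sits on Pol II cannot lie far inside a stretch, so the definition itself lowers both ratios. Among peaks without Pol II overlap, a comparison chosen after seeing the data, the ratio was 0.538 for Yki (26.3 inside and 49.0 outside) and 0.538 for Sd (7.60 inside and 14.1 outside). By arm the Yki ratio over all peaks ran from 0.196 on X to 0.258 on 2L, and the Sd ratio from 0.223 on X to 0.473 on 2R. Of the 174 stretches, 24 held no Yki peak, 84 held no Sd peak and 24 held neither, while 56 held 5 or more Yki peaks.

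Yki peaks in these stretches overlapped Sd in 25.8% of 740 cases (22.7 to 29.1), against 19.5% of 10806 elsewhere on the arms (18.8 to 20.3). Among Yki peaks elsewhere that had no Pol II peak the share was 23.0% of 4573 (21.8 to 24.3). Median Yki score was 16.3 inside the stretches, 21.8 elsewhere and 16.4 in that last group. The stretches with the most Yki peaks were chosen after their values were seen. On 2L 104.3 kb from 14495286 to 14599541 held 26 Yki and 8 Sd peaks. On 3R 159.3 kb from 6240616 to 6399909 held 23 Yki and 10 Sd peaks, the most Sd peaks of any stretch, and it lay just before the cluster of 20 Pol II peaks named above. Another on 3R, 119.0 kb from 787184 to 906181, held 23 Yki and 7 Sd peaks.

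Pol II peaks at the borders of these stretches tended to stand alone. The 333 border peaks scored a median of 53.2, against 29.9 for the 9616 other peaks on the arms, and 20.7% of them were clustered, against 58.6%. Median width was 399 bp for border peaks and 423.5 bp for the others. A border peak lacks a close neighbour on at least 1 side by definition, which lowers the clustered share. In the whole list the median score was 43.7 for single, 63.5 for isolated and 21.3 for clustered peaks. The score of border peaks was not separated from that selection. Yki overlapped 68.2% of border peaks (62.9 to 73.1) and 63.4% of the others (62.5 to 64.4). On the arms 15 peaks had a stretch of 100 kb or more on both sides, which makes all 15 single by definition. They measured 248 to 1108 bp and scored 19.5 to 138.8, and 12 of 15 overlapped Yki and 1 overlapped Sd. The highest was on 3R from 11491658 to 11492765, with 189.6 kb before it and 125.5 kb after it. Next in score were 2 on 2R, from 17759370 to 17760050 (121.3) and from 19091210 to 19091653 (108.4), and 1 on X from 22256749 to 22257189 (108.2).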

How the data were processed

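The submitters' processing notes name build dm3 and the tools CASAVA (1.8.2), MACS2 and Bowtie. Caller settings, read filters and the control library are not given in those sources. The deposited score is a value per peak from the authors' peak caller, with no unit in a header. The number and width of peaks depend on read depth, which is unknown, since the lists analysed carry no counts.

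From the deposited starts and ends, widths, gaps, clusters (gaps of at most 1 kb), windows of 100 kb (peaks placed by centre, part windows left out), stretches of 100 kb or more between neighbouring peaks, and overlaps of at least 1 bp were computed with Python (3.11.15) and its packages scipy (1.17.1), numpy (2.4.6), matplotlib (3.10.9) and pandas (2.3.3). Intervals printed for shares are exact Clopper-Pearson, and those for density ratios are such limits turned into ratios. Windows and stretches used the arms 2L, 2R, 3L, 3R, 4 and X, and other results all sequences. The code was tested on simulated peaks. Regions named are the widest and the highest peak of each arm, the 10 widest peaks, the 10 largest clusters, the 10 densest windows, the 10 longest stretches and the longest of each arm, and any other was chosen after its values were seen. Members and lists were chosen with earlier results of these data known.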

Additional observations from a re-analysis of the deposited data

How the results depend on the processing

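Widths, gaps, clusters and the relation of neighbours changed little on the 6 arms alone, and the clustered share was 57.0% without the cluster of 30 peaks, which was chosen after seeing the data. A move was judged against each value's 95% interval. For counts of clusters and stretches it was judged against 1.5 times, and for summed length and window values against any change. The interval was exact for shares, medians and density ratios. For neighbour rho it was the Fisher z approximation, which treats pairs as independent.

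With the upper 50% of every list by score, median width was 535 bp, 6.15% of peaks exceeded 2 kb, the median gap was 9919 bp, 24.9% of peaks were clustered, clusters of 5 or more numbered 0, stretches totalled 35.6 Mb, windows had a median of 4 peaks and a variance to mean ratio of 2.50, the Sd density ratio was 0.410, Yki overlapped 63.5% of clustered and 58.4% of isolated peaks, and neighbour rho was 0.0038. With fewer peaks in each list, gaps lengthen and clusters shrink. Yki on clustered peaks was then above Yki on isolated ones, the opposite of the whole list. Without peaks narrower than 250 bp the values were 464 bp, 4.02%, 2852 bp, 53.4%, 29.9 Mb, a median of 6, a ratio of 5.05, and Yki on 61.7% of clustered and 74.2% of isolated peaks.

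Linking gaps of 500 bp, 2 kb and 5 kb clustered 45.2, 68.6 and 81.7% of peaks in 84, 338 and 597 clusters of 5 or more, and with 5 kb Yki overlapped 61.8% of clustered peaks. A minimum stretch of 50 kb gave 568 stretches of 53.8 Mb and an Sd ratio of 0.375, and 200 kb gave 29 of 7.42 Mb with ratios of 0.138 for Yki and 0.159 for Sd. Windows shifted by 50 kb had a variance to mean ratio of 5.71, windows of 50 kb a median of 3 and a ratio of 4.49, and windows of 200 kb 16 and 6.71. Requiring 50% of the shorter peak put Yki on 48.5% of clustered and 61.3% of isolated peaks, and the central 200 bp on 25.04 and 43.5%. With 25 kb of isolation Yki overlapped 63.2% of isolated peaks. Neighbour rho beyond 1 kb was 0.060. Without Yki and Sd peaks on Pol II, both density ratios were 0.538. In score quartiles 1 to 4, Yki overlapped 18.7, 55.2, 89.6 and 97.1% of clustered and 41.7, 43.4, 55.6 and 91.8% of isolated peaks. The last 2 comparisons were chosen after seeing the data. The cause of these moves was not tested.

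No paired analysis was possible because no group held more than 1 sample. Depth is unknown, so a stretch without a Pol II peak is one where none was called, not one shown to lack Pol II.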

Other observations

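Outside the 6 arms, 156 Pol II peaks lay on 8 heterochromatic or unplaced sequences, with a median width of 447.5 bp and a median score of 18.4, against 30.6 on the arms. Spacing there depended on the sequence. On 2RHet (31 peaks) and 3LHet (28 peaks) the peaks gathered in groups, with median gaps of 3629 and 2211 bp and 71.0 and 71.4% of peaks in clusters, although the longest gaps reached 1154 and 685.0 kb. On Uextra (47 peaks), a string of unplaced pieces, the median gap was 321966 bp and 2 peaks were clustered. These sequences held 58 of the 232 gaps of 100 kb or more. Yki overlapped 25.8% of the Pol II peaks on 2RHet and 60.7% of those on 3LHet, and Sd overlapped 25.8 and 39.3%, from few peaks in each case.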
